A study of Homo sapiens with 4 samples.

Results

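The genes of the azurophil granule and its neighbours among the neutrophil and eosinophil granules were examined for H3K27Ac, the histone mark of active enhancers and promoters. The set was given by name and held 10 of the 19671 protein-coding genes with a known strand, namely MPO, ELANE, AZU1, PRTN3, CTSG, RNASE2, RNASE3, SRGN, LTF and CAMP. The naming rule used no measured value, but the genes were chosen with earlier results of these data known. Each gene was taken as its body with 10 kb either side on GRCh38, here called its locus. Human MOLM13 cells, an established acute myeloid leukemia (AML) line with an MLL-AF9 fusion, were exposed for 16 hours to 500 nM OTX015 or to 500 nM SNDX-50469 together with 500 nM OTX015. OTX015 is a BET bromodomain inhibitor and SNDX-50469 is a Menin inhibitor, so both groups carried the BET inhibitor and differed by the Menin inhibitor. There was 1 H3K27Ac ChIP library and hence 1 peak list per treatment. Differences between the lists were thus without replicates and could not be tested. The comparison addresses what Menin inhibition adds to BET inhibition at these loci.

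Azurophil granules are the first granules that a maturing neutrophil makes, at the promyelocyte stage, and their proteins are stored for killing microbes. Myeloperoxidase (MPO) makes hypochlorous acid, while ELANE, PRTN3, CTSG and the inactive protease homologue AZU1 are serine proteases by descent. Serglycin (SRGN) is the proteoglycan that packs them. RNASE2 and RNASE3 are ribonucleases best known from eosinophil granules, and LTF (lactoferrin) and CAMP (cathelicidin) belong to the specific granules that form later. Transcription of these genes in myeloid progenitors is known to involve C/EBP, PU.1, RUNX1 and MYB, and many AML cells express the azurophil genes strongly.

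The peak lists held 55852 peaks with OTX015 and 86207 with the combination, without read numbers. The lowest peaks of each list fixed a background pileup of 0.764 fragments per base with OTX015 and 1.47 with the combination, a ratio of 1.92. Whether the combination library was deeper was not tested, since depth was not measured. A peak's mean pileup over the background of its own library, in fold, is called its enrichment below. The lowest enrichment of a listed peak was 6.54-fold with OTX015 and 4.76-fold with the combination, so a weaker region could be listed with the combination than with OTX015. Of the 9 markers of myeloid leukemia cells, 8 had cover in at least 1 list, as did 12953 of all 19671 loci, with 10.3 and 9.52 kb at SPI1 and 7.90 and 12.6 kb at FLT3, while CD14 had none. Among markers of other lineages, the T cell genes CD3D (0.582 and 0.333 kb) and CD4 (0.279 and 0.935 kb) had short cover, and CD3E and BCL11B had none. The B cell genes EBF1 (1.49 and 1.55 kb), PAX5 (0 and 0.855 kb) and MS4A1 (0 and 0.108 kb) also had some. The erythroid gene KLF1 had 0.499 and 0.551 kb, GATA1 and HBB had none, and neither did the epithelial genes EPCAM and KRT8. Promoter peaks were found with the combination at CD3D and KLF1.

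All 10 loci had an H3K27Ac peak in at least 1 list. Of them 9 were covered with OTX015, against 51.0% of all protein-coding loci, and 9 with the combination, against 53.8%. The genes of the primary granule enzymes carried most of the mark. At AZU1 peaks covered 11.6 kb of the locus with OTX015 and 12.7 kb after co-treatment with SNDX-50469 and OTX015, called the combination below. The PRTN3 locus had 10.1 and 12.4 kb, ELANE 6.36 and 8.03 kb, and MPO 5.61 and 10.1 kb. At CTSG 4.86 kb was under peaks with OTX015 and 1.11 kb after co-treatment, and RNASE2 had 3.46 and 2.47 kb. The remaining loci had at most 1.82 kb in either list, where all protein-coding loci had a mean of 1.03 and 1.67 kb and a median of 0.114 and 0.124 kb. SRGN had 0.497 and 1.82 kb, RNASE3 0.211 and 0.310 kb, LTF no peak and 0.232 kb, and CAMP 0.372 kb and no peak. The 3 loci with the least cover were RNASE3, LTF and CAMP in both lists.

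**Figure D1:**
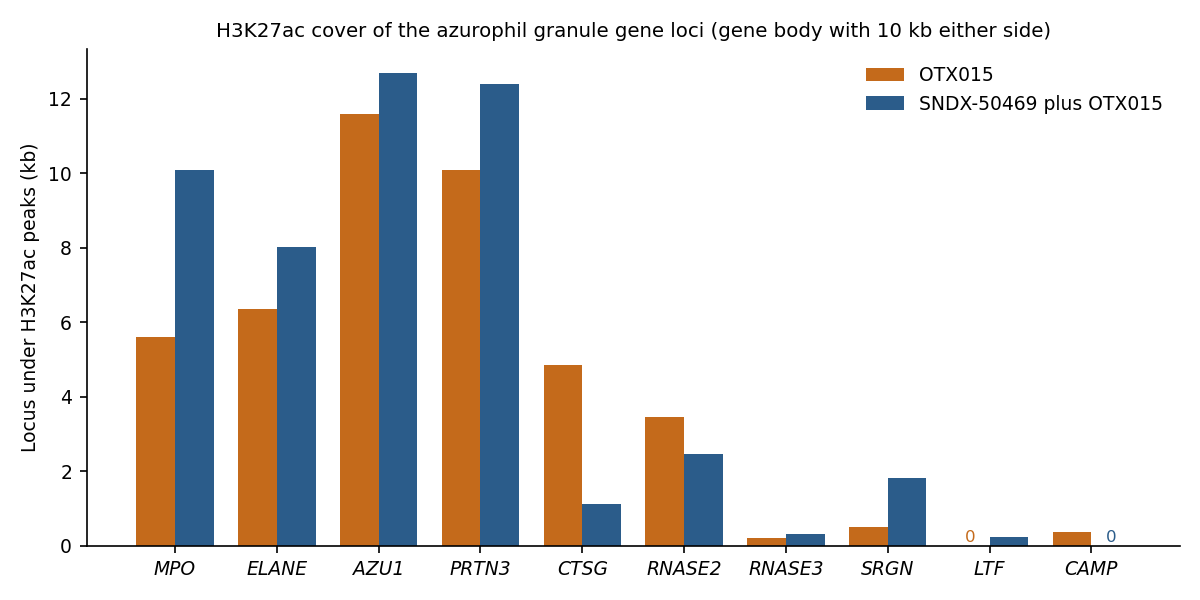
Length of each locus (gene body with 10 kb either side) under H3K27Ac peaks, in kb, in the OTX015 list and in the list of SNDX-50469 plus OTX015, with 1 library each and hence no error bars. Bars are longest at AZU1 and PRTN3 in both lists, and CTSG and RNASE2 are the loci of over 1 kb that were shorter with the combination.

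The combination gave more cover at 7 of the 10 loci, against 59.3% of the 12953 protein-coding loci with cover, and lower at 3, against 40.7%. These shares are near the background. A call of at least 2-fold more cover, or cover in the combination list alone, was met by SRGN and LTF, against 41.6% of all covered loci. A call of at least 2-fold less, or cover in the OTX015 list alone, was met by CTSG and CAMP, against 27.6%. The median difference over the 10 loci was 0.671 kb and that over all covered loci 0.134 kb. With overlapping loci counted once, the 10 loci held 33.0 kb under OTX015 peaks and 36.9 kb under combination peaks, a ratio of 1.12. All protein-coding loci, counted in the same way, held 16300 and 27000 kb, a ratio of 1.66. In proportion the 10 loci thus gained less cover than all loci together. The chromosomes that carry them (3, 10, 14, 17 and 19) had ratios of 1.02, 0.880, 0.887, 1.09 and 1.33, each also below 1.66. The lower ratio of the 10 loci thus cannot be told apart from that of their chromosomes. Leaving out chromosome 19, which carries AZU1, PRTN3 and ELANE and was covered 1.33 times more with the combination as a whole, 4 of 7 loci had more cover and 3 had less.

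When both lists were held to the same enrichment of 6.54-fold, MPO was the only one of the 10 loci that still had more cover with the combination, and 8 had less. Of all covered loci, 0.837% (84 of 10034) then had more cover with the combination. This requirement left every OTX015 peak in place and 1160 of the 86207 combination peaks. The 2 lists then covered 5.61 and 8.40 kb at MPO, whereas AZU1 had 11.6 and 10.0 kb, PRTN3 10.1 and 6.36 kb, and ELANE 6.36 and 3.40 kb. CTSG and RNASE2 had no combination peak of that strength.

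The peaks of these loci were wide and were often found with both treatments. Counting each peak once, the median width was 901 bp over 25 OTX015 peaks and 495 bp over 36 combination peaks, against 303 and 339 bp over the whole lists. Peaks of more than 2 kb numbered 7 with OTX015 and 6 with the combination, where 2.14% and 2.78% of all peaks were that wide. A combination peak overlapped 20 of the 25 OTX015 peaks (80.0%, Wilson 95% interval 60.9 to 91.1%), against 33.3% of the whole list. An OTX015 peak overlapped 19 of the 36 combination peaks (52.8%, 37.0 to 68.0%), against 21.0%. The intervals cover counting over peaks only, and neighbouring peaks of a locus are not independent. The whole lists were not matched to these peaks for width or chromosome, and 13 of the 20 overlapped OTX015 peaks lie on chromosome 19.

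Promoters, taken as the 5′ end with 1 kb either side, carried a peak at 7 of the 10 genes with OTX015, against 14.9% of all protein-coding genes, and at 7 with the combination, against 15.3%. MPO, ELANE, AZU1, PRTN3, CTSG and RNASE2 had one with both treatments, RNASE3 with OTX015 and SRGN with the combination. The RNASE3 peak reached into its window by 1 bp. LTF and CAMP had none.

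The promoter sequences of the genes whose start lay under a peak are shown first, since the 2 treatments differed in how much of them was covered, and RNASE3 is shown beside its near copy RNASE2. Each runs from 250 bases before to 50 bases after a transcription start in RefSeq (GRCh38.p14), 5′ to 3′ on the strand of the gene. The table matched 7 of the 10 genes; MPO, ELANE and SRGN were not matched. Capitals mark matches, on either strand, to TTGCNNAA (C/EBP), GAGGAA (PU.1) and AACTG (MYB). No match of one motif overlapped that of another in the sequences shown. AZU1 (chr19:827587-827886, plus strand) and PRTN3 (chr19:840749-841048, plus strand) were wholly under a peak in both lists. The window of CTSG (chr14:24576201-24576500, minus strand) had all 300 bases under a peak with OTX015 and 56 with the combination, and that of RNASE2 (chr14:20955237-20955536, plus strand) had 300 and 2. RNASE3 (chr14:20891135-20891434, plus strand) had 0 in both.
AZU1: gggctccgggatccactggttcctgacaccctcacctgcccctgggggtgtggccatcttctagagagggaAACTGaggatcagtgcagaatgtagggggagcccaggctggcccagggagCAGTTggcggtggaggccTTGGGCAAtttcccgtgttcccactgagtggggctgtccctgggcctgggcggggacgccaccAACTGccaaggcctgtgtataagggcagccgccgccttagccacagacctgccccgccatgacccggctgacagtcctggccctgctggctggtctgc
PRTN3: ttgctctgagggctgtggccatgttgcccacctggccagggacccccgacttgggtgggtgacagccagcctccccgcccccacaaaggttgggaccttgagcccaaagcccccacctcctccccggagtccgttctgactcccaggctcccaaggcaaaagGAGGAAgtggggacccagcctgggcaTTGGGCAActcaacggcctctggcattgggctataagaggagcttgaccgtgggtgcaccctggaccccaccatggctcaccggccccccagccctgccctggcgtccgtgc
CTSG: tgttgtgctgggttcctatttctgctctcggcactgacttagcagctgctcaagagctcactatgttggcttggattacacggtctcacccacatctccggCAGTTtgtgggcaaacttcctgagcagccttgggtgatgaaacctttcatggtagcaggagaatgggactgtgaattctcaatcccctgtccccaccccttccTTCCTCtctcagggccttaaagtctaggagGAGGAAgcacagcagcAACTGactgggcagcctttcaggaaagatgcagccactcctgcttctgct
RNASE2: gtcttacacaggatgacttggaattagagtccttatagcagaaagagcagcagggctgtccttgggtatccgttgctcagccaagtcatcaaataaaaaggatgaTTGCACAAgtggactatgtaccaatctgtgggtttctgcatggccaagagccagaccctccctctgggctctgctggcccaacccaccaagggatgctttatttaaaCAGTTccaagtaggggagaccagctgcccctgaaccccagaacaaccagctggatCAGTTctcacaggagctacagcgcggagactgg
RNASE3: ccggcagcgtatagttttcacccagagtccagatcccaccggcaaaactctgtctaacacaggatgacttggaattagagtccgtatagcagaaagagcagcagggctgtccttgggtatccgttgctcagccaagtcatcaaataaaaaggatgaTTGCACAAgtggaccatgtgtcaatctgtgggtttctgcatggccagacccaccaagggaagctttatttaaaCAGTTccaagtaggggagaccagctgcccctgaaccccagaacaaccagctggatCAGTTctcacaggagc

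The C/EBP letters occurred in 5 of the 9 promoters of the 7 matched genes (LTF has 3 starts), namely those of AZU1, PRTN3, RNASE2, RNASE3 and 1 start of LTF, and in 10.5% of all 35116 promoters. AZU1 and PRTN3 carried the same 8 bases, TTGGGCAA (the motif on the other strand), at −111 to −104 and at −62 to −55, counted from 0 at the start site. The PU.1 letters were in 6 of the 9 and in 27.9% of all promoters. They were found in PRTN3 at −88, in CTSG at −46 and −16, in CAMP and at all 3 starts of LTF. The MYB letters were in 5 of the 9, with 3 matches in AZU1, and in 39.7% of all. TGTGGT (RUNX) was in 1 of the 9, at LTF, and in 13.1% of all, and CACGTG (MYC E-box) was in none of the 9 and in 7.26% of all. These are matches of letters and not sites shown to be bound. Promoters with and without a peak both held the C/EBP letters, and both held the PU.1 letters. The windows of RNASE2 and RNASE3 were identical at 242 of 249 aligned bases (97.2%), with 86 bases in a row the same, so reads from this stretch are uncertain between these paralogs, and the rest of the genes was not compared.

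MPO (chromosome 17, 58269855 to 58280935, minus strand) had the largest excess of cover with the combination among the 10 loci, 4.54 kb. With OTX015 there were 3 peaks. The first ran from −0.0640 to 2.94 kb, counted from the 5′ end in the direction of transcription, at an enrichment of 8.87-fold. The other 2 lay upstream, from −1.66 to −0.707 kb at 8.02-fold and from −4.05 to −2.40 kb at 8.14-fold. With the combination the first 2 were replaced by a single peak of 5.24 kb from −1.91 to 3.33 kb, at 7.45-fold. The upstream peak was wider, from −5.52 to −2.36 kb, and its enrichment was 8.83-fold. All of the OTX015 cover lay within the combination cover, which extended on both sides. The added length was greater upstream of the gene, where the lists had 2.67 and 5.91 kb, than in the gene body, with 2.94 and 4.01 kb. A further 5 short combination peaks, of 110 to 574 bp and at most 5.07-fold, were below the strength that the OTX015 list could show.

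The upstream peak of MPO (chr17:58283336-58284982 with OTX015 and chr17:58283296-58286456 with the combination) was 1 of few regions in which enrichment was not lower with the combination. Over the 18615 OTX015 peaks that met a combination peak, each set against the one it overlapped most, the median ratio of enrichment, combination to OTX015, was 0.740. The lowest enrichments that the lists could hold, 4.76 and 6.54, set a limit to how low this ratio can be. The median listed peaks, at 5.08-fold with the combination and 6.90-fold with OTX015, lay close to these limits. For peaks near them a ratio under 1 is favored by the lists themselves, so the share of pairs at or above 1 is partly set in advance. The ratio was at least 1 in 104 pairs (0.559%), and in 2 of the 20 pairs at the granule genes. The combination peak was the wider one in 10 of the 20, against 64.1% of all pairs and 53.3% of those on chromosome 19, where 13 of the 20 lie. The ratio of enrichment was 1.08 at the upstream peak of MPO, and 34 pairs in all had one as high. At the other MPO peaks it was 0.929 and 0.840. The locus ratio of cover was 1.81, where the surrounding sequence, up to 5 Mb on each side, was covered to 0.524% with OTX015 and 0.610% with the combination, a ratio of 1.17. Of all protein-coding loci, 818 had as much cover as MPO with OTX015 and 636 with the combination. The only other gene reaching into the locus was LPO, the lactoperoxidase gene, whose body had no OTX015 peak and 0.730 kb under combination peaks. The excess at MPO was also found among peaks past a −log10 q of 2 (4.65 and 8.40 kb). That cut kept 4211 OTX015 and 11097 combination peaks, and 65.1% of the 4302 loci then covered had more with the combination.

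**Figure D2:**
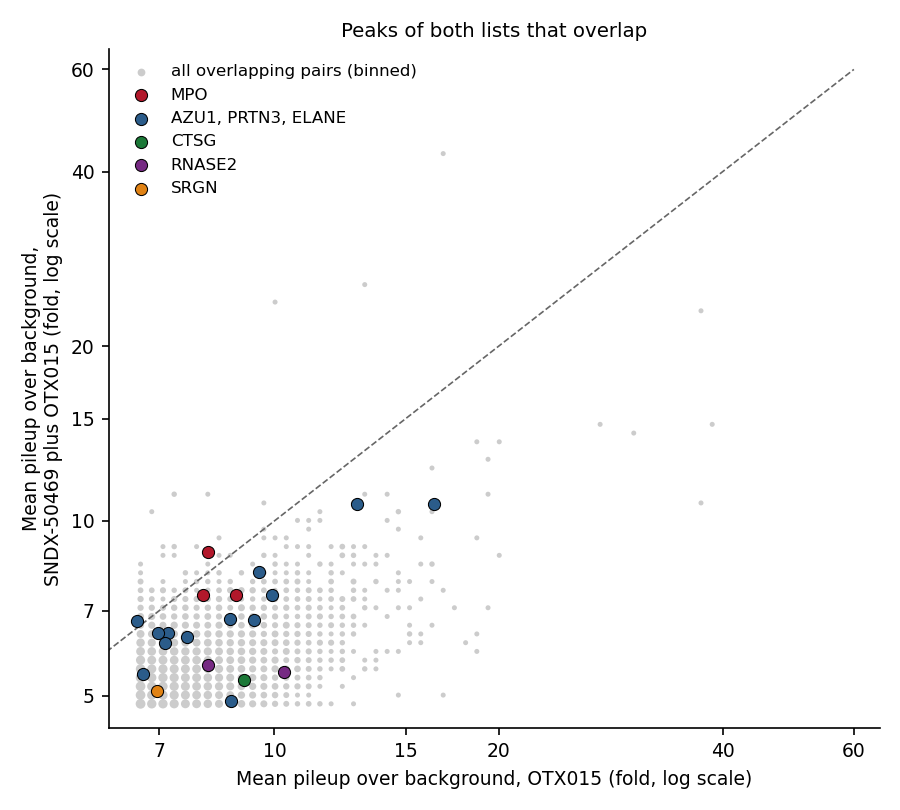
Enrichment (mean pileup over the background of the same library, in fold, log axes) of OTX015 peaks and of the combination peak each overlapped most. Grey points are bins of all 18615 pairs, with larger points for more pairs, colored points are the 20 pairs at the granule genes, and the dashed line marks equal values. The upstream peak of MPO, at 8.14 and 8.83, lies above the line, as does a weak peak upstream of AZU1.

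AZU1, PRTN3 and ELANE lie head to tail on the plus strand of chromosome 19. Their separate peaks formed 1 stretch in each list when gaps of up to 12.5 kb were joined. From 10 kb before AZU1 to 10 kb after ELANE (chr19:817837-866243), 14 OTX015 peaks covered 18.0 kb (37.2%) and 18 combination peaks 20.8 kb (42.9%). Of the OTX015 cover, 86.9% was also under combination peaks. The ratio of cover, 1.15, was lower than that of the surrounding sequence, 1.28, where 5.60% was covered with OTX015 and 7.14% with the combination. With a common enrichment the span had 4.58 kb less with the combination than with OTX015. The part of the higher background pileup of the combination library in the longer cover of the span was not tested.

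The strongest H3K27Ac of the span lay before AZU1 (827837 to 832018), which encodes azurocidin. With OTX015 a peak from −6.91 to −4.98 kb had an enrichment of 12.9-fold and 1 from −4.34 to −1.39 kb had 16.4-fold and a −log10 q of 8.43. With the combination a single peak of 5.48 kb, from −6.89 to −1.41 kb, took their place at 10.7-fold and a −log10 q of 8.44. The 5′ end of PLPPR3, which is transcribed away from AZU1, lies 4.04 kb before it and within this stretch, so these peaks cannot be given to AZU1 alone. At the AZU1 start itself a peak of about the same position was listed with both treatments, of 938 bp at 9.55-fold with OTX015 and of 920 bp at 8.15-fold with the combination. The ratio of enrichment at this start, 0.854, was above the median ratio of all pairs. A weak peak further out, ending at −7.55 kb, had 6.54-fold with OTX015 and 6.73-fold with the combination.

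PRTN3 (840999 to 848175), the gene of proteinase 3, had 1 peak of 2.28 kb over its start with OTX015, from −2.05 to 0.226 kb, at 9.94-fold. With the combination this stretch was split into a peak from −2.01 to −1.09 kb at 7.44-fold and another from −0.655 to 0.341 kb at 8.83-fold and a −log10 q of 5.66. The second was the highest combination peak at a start among the 3 genes. In the body, a peak of 2.58 kb from 4.94 to 7.52 kb was listed with OTX015 and one of 2.55 kb with the same end with the combination, at 7.63- and 6.32-fold. Of the body, 3.22 kb was covered by OTX015 peaks and 3.58 kb by combination peaks.

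ELANE (852303 to 856243), the gene of neutrophil elastase, had a peak over its start of 2.39 kb with OTX015, from −1.76 to 0.637 kb at 9.39-fold, and of 3.40 kb with the combination, from −2.25 to 1.15 kb at 6.74-fold. Within the body, OTX015 peaks took 0.638 kb (16.2%) and combination peaks 1.64 kb (41.6%), including a separate peak of 484 bp near the 3′ end at 6.46-fold. The locus further reaches CFD, the complement factor D gene, which had a promoter peak in both lists. The body of CFD had no OTX015 peak and 0.234 kb with the combination. Over the 13 overlapping pairs of the span the ratio of enrichment was 0.561 to 1.03 with a median of 0.827. All 895 pairs of chromosome 19 had a median of 0.725.

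**Figure D3:**
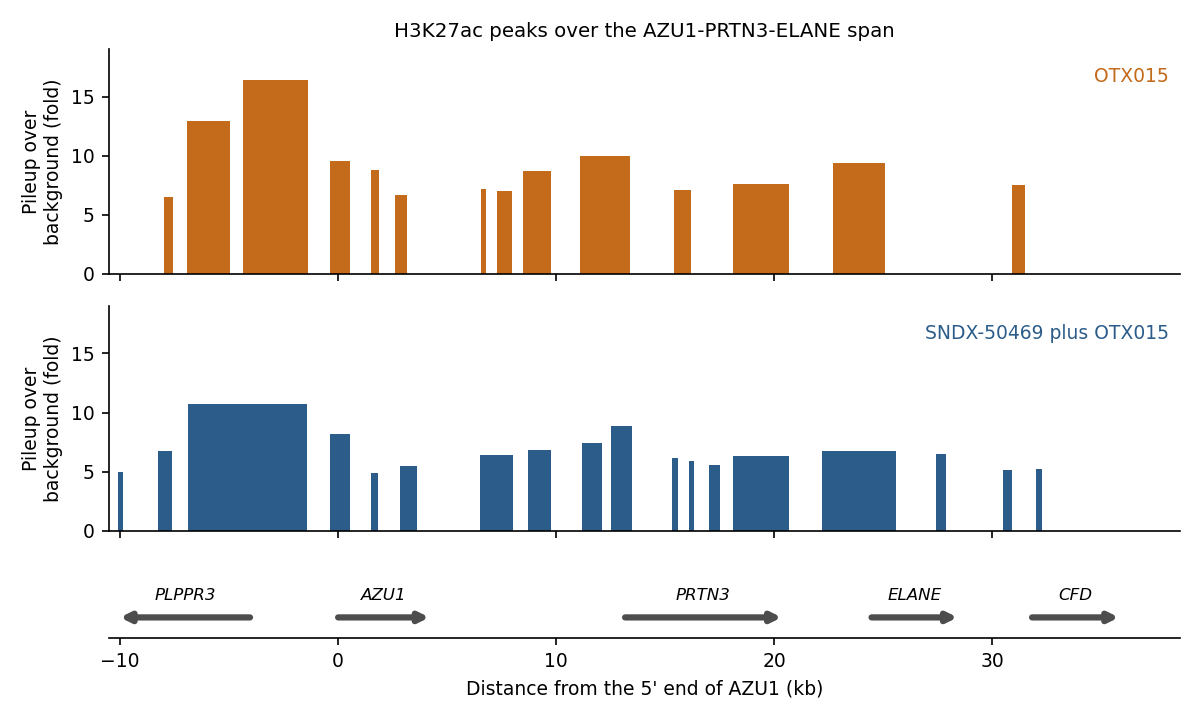
H3K27Ac peaks over the AZU1-PRTN3-ELANE span, by distance from the 5′ end of AZU1 in kb. The height of each block is the enrichment of the peak (mean pileup over background, in fold), and arrows show the genes in the direction of transcription. The highest blocks lie between −6.91 and −1.39 kb in both lists, at 16.4-fold with OTX015 and 10.7-fold with the combination.

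CTSG (chromosome 14, 24573518 to 24576250, minus strand), the gene of cathepsin G, showed the largest loss of cover among the 10 loci. With OTX015 a single peak of 4.86 kb ran from −1.03 to 3.82 kb and covered the whole gene, at an enrichment of 9.11-fold and a −log10 q of 2.65. With the combination there were 2 short peaks, of 852 bp from −1.05 to −0.195 kb at 5.33-fold and of 262 bp from 1.03 to 1.29 kb at 5.30-fold, neither of which held the start. The share of the gene body under peaks was 100% with OTX015 and 9.59% with the combination. The combination list went down to weaker regions than the OTX015 list, and the surrounding sequence was covered slightly more, at a ratio of 1.15, while chromosome 14 as a whole was covered less, at a ratio of 0.887. The direction was the same under all 7 other settings tried. The ratio of enrichment was 0.585, against the median of 0.740. Of all protein-coding loci, 953 had as much cover as CTSG with OTX015 and 4109 with the combination.

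RNASE2 (chromosome 14, 20955487 to 20956436, plus strand), which encodes the eosinophil-derived neurotoxin, differed less, with 3.46 kb of cover with OTX015 and 2.47 kb with the combination. A peak from −0.295 to 2.27 kb at 8.14-fold with OTX015 became a peak from 0.0480 to 2.05 kb at 5.65-fold with the combination, so that the start was no longer covered. A second peak beyond the gene was 901 bp wide at 10.3-fold and a −log10 q of 3.42 with OTX015, and 344 bp wide at 5.49-fold with the combination. Their ratios of enrichment were 0.695 and 0.533. RNASE3 (20891385 to 20892348), the gene of the eosinophil cationic protein on the same chromosome, had 1 peak of 211 bp with OTX015, starting at −1.21 kb, and 2 peaks of 156 and 154 bp past the gene with the combination. None was in the gene and none was shared. CTSG, RNASE2 and RNASE3 share chromosome 14, on which 54.1% of covered loci had more cover with the combination although the summed cover was lower.

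**Figure D4:**
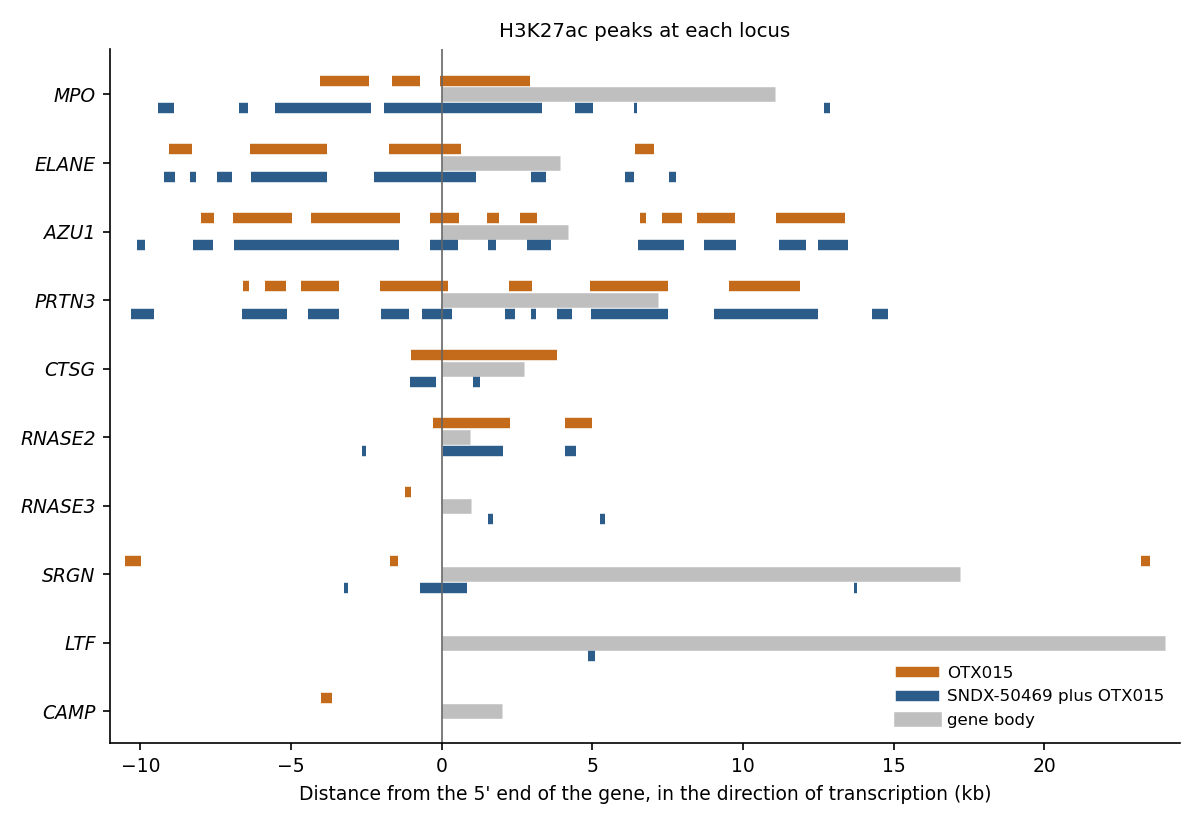
Position of every H3K27Ac peak at the 10 loci, by distance from the 5′ end of the gene in the direction of transcription in kb; gray bars are gene bodies, that of LTF being drawn to 24 kb only, since it is 49.6 kb long. The single OTX015 peak over CTSG, from −1.03 to 3.82 kb, is reduced to 2 short peaks with the combination, and the SRGN start is covered with the combination only.

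SRGN (chromosome 10, 69087603 to 69104811, plus strand) had a peak at its start in the combination list only, of 1.56 kb from −0.704 to 0.853 kb. Its enrichment was 5.76-fold, under the 6.54-fold that the lowest OTX015 peak had, so a difference in the mark at this start was not detectable in these lists. OTX015 peaks of 251 bp before and 229 bp after the gene were not shared. Most of the mark near SRGN lay further upstream, beyond the 10 kb. A stretch was joined across gaps of up to 12.5 kb in the combination list (chr10:69042151-69088456), so its bounds favor that list. In it 11 OTX015 peaks covered 28.0% and 15 combination peaks 39.8% (18.4 kb). The widest ran from −26.0 to −21.6 kb with OTX015, at 9.20-fold, and from −26.1 to −21.0 kb with the combination, at 7.06-fold. Among 609 such stretches on chromosome 10 in the combination list this ranked 2 by cover. No gene record lay under the peaks of 1 kb or more upstream of the SRGN start.

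A block far upstream of MPO, chosen after its values were seen, had a lower enrichment with the combination, as did the peak over the MPO start. This is not particular to these peaks, since enrichment was at least as high with the combination in 0.559% of all 18615 pairs. Over the MIR142 host gene MIR142HG, a peak from −59.7 to −49.9 kb before MPO had an enrichment of 13.6-fold with OTX015, and 1 from −59.4 to −50.3 kb had 8.71-fold with the combination. Between this block and the MPO locus the combination list held more peaks, each at most 6.45-fold, so that a stretch of 86.7 kb was joined across gaps of up to 12.5 kb. Over this same stretch, whose bounds were set by the combination list and favor it, 13 OTX015 peaks covered 20.6 kb and 23 combination peaks 27.2 kb. Over the stretch that the OTX015 list joined at MPO (chr17:58277999-58284982), the 2 lists covered 5.61 and 6.53 kb. The joining peaks were weaker than the 6.54-fold of the lowest OTX015 peaks, and a region of such an enrichment would not stand in the OTX015 list.

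**Figure D5:**
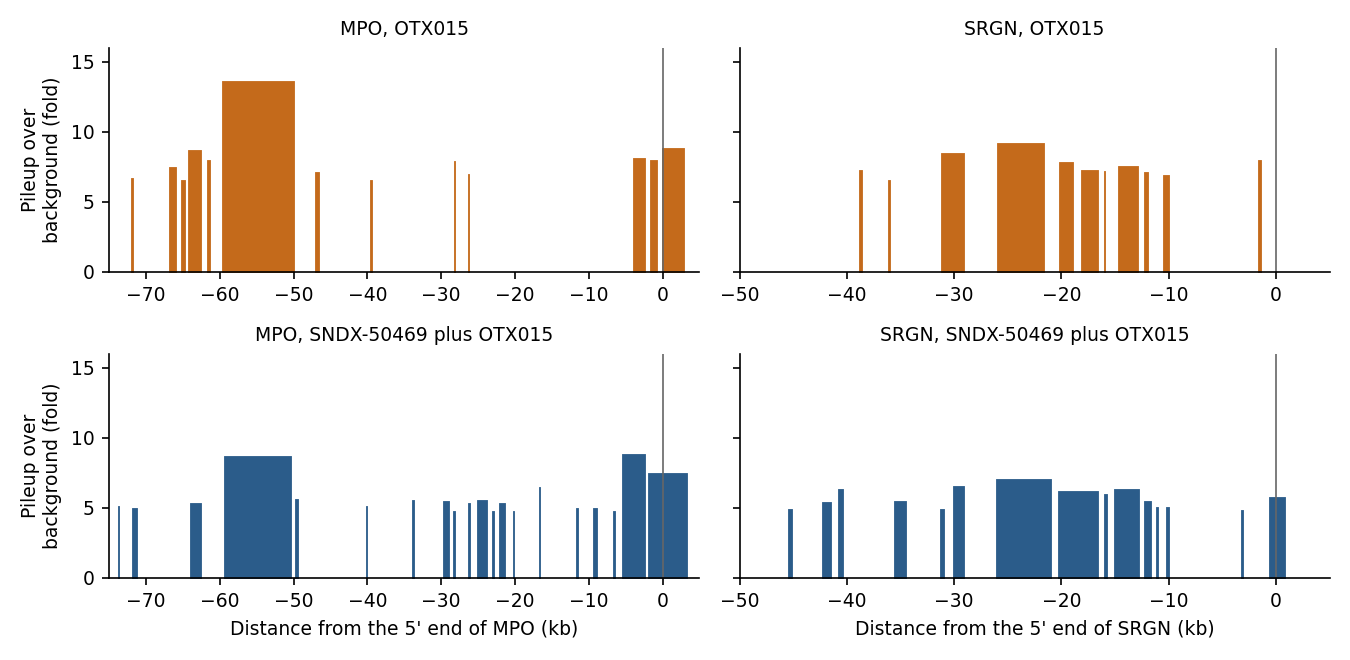
H3K27Ac peaks upstream of MPO and SRGN, by distance from the 5′ end in kb, with the enrichment of each peak (mean pileup over background, in fold) as height and 1 panel per gene and treatment. The block near −60 to −50 kb of MPO was higher with OTX015 (13.6-fold and 8.71-fold), as was the peak over the MPO start (8.87-fold and 7.45-fold). Nearly all overlapping pairs were likewise higher with OTX015, all but 0.559%. The peak from −4.05 to −2.40 kb with OTX015 was 8.14-fold and the combination peak over it 8.83-fold.

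LTF and CAMP, of the specific granule, had hardly any H3K27Ac under a peak. The LTF locus (chromosome 3, 46435645 to 46485234, minus strand) held no OTX015 peak and 1 combination peak of 232 bp at 4.76-fold, the lowest enrichment in that list. It lay 4.87 to 5.10 kb after the first of the 3 starts in RefSeq, and from −15.5 to −15.2 kb of the next. CAMP (chromosome 3, 48223495 to 48225485, plus strand) had 1 OTX015 peak of 372 bp from −4.00 to −3.63 kb at 7.04-fold and no combination peak. Signal weaker than the lowest listed peaks cannot be seen in these lists.

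Other granule genes were examined for comparison. All 54 names of this comparison list were matched. Of them 34 loci had cover, 26 with more (76.5%, against 59.3% of all) and 8 with less with the combination, and 15 and 5 met the 2-fold call in each direction. Promoter peaks were found at 11 of the 54 in each list, against 14.9% and 15.3% of all genes. Their mean cover in the 2 lists was 0.834 and 1.36 kb, against 1.03 and 1.67 kb over all protein-coding loci. Without chromosomes 5, 6, 8, 13, 19 and 20, 31 of the 54 remained, and 72.2% of those covered had more with the combination. These 31 had a mean of 0.635 and 0.925 kb and a median of 0 and 0.113 kb. The 7 loci outside chromosome 19, which do not overlap, had a mean of 2.14 and 2.30 kb and a median of 0.497 and 1.11 kb. Among further azurophil and lysosomal genes, 10 of 13 covered loci had more with the combination. Of these CTSB, the cathepsin B gene on the densely covered chromosome 8, differed most, with 9.41 and 18.7 kb. PRSS57, an azurophil serine protease on chromosome 19 that was picked after its values were seen, had 5.84 and 7.50 kb.

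Specific granule genes had little cover, as had LTF and CAMP. Of 14 loci, 3 were covered with OTX015, against 51.0% of all loci, and 6 with the combination, against 53.8%, and the 14 loci together had 1.94 and 6.28 kb. CHI3L1, which encodes a chitinase-like protein, had 0.468 and 4.06 kb. Of the 5 gelatinase granule genes, 4 had more cover with the combination and 1 had less, and their mean cover was 2.19 and 2.93 kb. Among the eosinophil and mast cell genes 3 of 4 covered loci had more, and among the granzyme and other lymphoid granule genes 3 of 5. The share over all covered loci was 59.3%, and counts this small do not set the lists apart from it. EPX, the eosinophil peroxidase gene, which is also on chromosome 17 and was picked for its relation to MPO, had 0.332 and 0.164 kb.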

How the data were processed

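The authors deposited 1 MACS2 broad peak list per ChIP library, and per the submitters' processing notes reads were handled with bcl2fastq 2.17, Trimmomatic 0.33, Bowtie 1.1.2 and MACS2 2.1.0 on GRCh38, whereas the methods of the study name TopHat2. Whether an input was used in peak calling, and how reads with several hits were treated, is not given in the sources used here. Each deposited row holds a score, a fold enrichment (a ratio of pileup to background) and a −log10 p and −log10 q, as means over the peak. The titles write H2K27Ac and the antibody label H3K27Ac, which was followed. The 2 input libraries were not analysed here. That the files are on GRCh38 was checked with 19105 promoters, of which 15.1% (OTX015) and 15.4% (combination) held a peak at RefSeq GRCh38.p14 positions and 5.73% and 8.26% at GRCh37 positions.

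Background was solved from the lowest peaks of a list, as fold = (pileup + 1) / (background + 1) with a Poisson p. With it the −log10 p of 98.7% and 99.2% of peaks was matched within 0.1. Enrichment is the pileup over that background. Cover is the union of peaks, overlap means at least 1 bp, and starts are counted 1-based. Gene records came from RefSeq, strands of 7 of the 10 genes from its promoter table and of 3 from GENCODE v44; its 5′ end was the end of the gene record given by the strand, and exons were not used here. Beside the 10 genes, the text names other genes with a body in their loci genes of the comparison lists that differ by at least 3 kb, and the marker genes. The genes, lists and measures were chosen with earlier results of these data known. Alternatives were stricter peaks (−log10 q of at least 2), equal numbers of peaks, a common enrichment, no flanks, 50 kb flanks, a window of 10 kb around the 5′ end, peaks within 1 kb joined and a promoter of 2.5 kb either side. The ratio of enrichments and the stitched stretches (12.5 kb) were added after seeing the data. Cover and background were tested on simulated data. Scripts ran on Python 3.11.15 with pandas 2.3.3, scipy 1.17.1, numpy 2.4.6, Biopython 1.88, statsmodels 0.14.6 and matplotlib 3.10.9.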

Additional observations from a re-analysis of the deposited data

How the results depend on the processing

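Direction of the locus difference held under all 7 other settings, or became 0, for MPO, CTSG, RNASE2, LTF and CAMP. A common enrichment over background left 1 locus covered more and 8 covered less with the combination, where 7 and 3 had been found, and 4 in place of 7 combination promoters with a peak. It turned the summed difference from 3.87 to −11.2 kb, that of the AZU1-PRTN3-ELANE span from 2.78 to −4.58 kb, and those of ELANE to −2.95 kb, AZU1 to −1.62 kb, PRTN3 to −3.79 kb, RNASE3 to −0.211 kb and SRGN to −0.497 kb. By its construction it keeps 1160 combination peaks. Joining peaks within 1 kb gave −0.0340 kb at AZU1, and 50 kb flanks −0.0300 kb at RNASE3, from main values of 1.11 and 0.0990 kb. The summed difference was 5.89 kb with −log10 q of at least 2, 2.01 kb with equal numbers of peaks, 1.26 kb in gene bodies alone and 14.9 kb with 50 kb flanks. That of the span was 6.34 kb with −log10 q of at least 2 and 4.54 kb with 50 kb flanks. With equal numbers of peaks 42.1% of all covered loci, and 6 of the 10, had more cover with the combination. No paired analysis was possible because there was 1 library per treatment. The differences at LTF and CAMP rest on 1 weak peak each, and that at RNASE3 on 3.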
